A study of Mus musculus with 9 samples.

Results

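P3 GBM tumors and OPC lesions, both from mice on the high-doxycycline (DOX) diet, were set against each other gene by gene. P3 GBM is a mouse glioblastoma made by human PDGF-A, the human PDGFRα receptor and loss of p53. The OPC lesion is a growth of oligodendrocyte precursor cells in brains exposed to human PDGF-A that the study does not class as a tumor. The arrays were chosen by sample title, and they are 3 P3GBM_HighPDGFA and 3 OPC arrays of the 9 in the series. The other 3, P3GBM_LowPDGFA (25 mg/kg DOX), entered the fit only to share its estimate of the spread.

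The labels write the P3 genotype as hPDGF-A;hPDGFRα;p53lox and the OPC genotype as hPDGFRα;p53, and give 600 mg/kg DOX for both. The study's text instead describes the OPC lesions as brains of conditional p53 mice injected with the lentivirus, without the receptor transgene, and as still expressing p53. On that description the comparison asks what the human receptor, the loss of p53 and the tumor state together add to chronic high PDGF-A. Which of these descriptions holds for the arrays cannot be read from the mouse probes used here. In P3 mice the receptor cDNA sits in the Col1a1 locus behind a CAG promoter and a floxed stop cassette. A lentivirus with DOX-inducible human PDGF-A and constitutive Cre was injected into the adult striatum, so the cells that carry the alleles are those the virus reached. RNA came from frozen bulk tissue, in which fewer cells of a type and less RNA per cell cannot be told apart. No source states that the numbered replicates are different mice, and the tests therefore cover the variation among these arrays, which may in part be technical.

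PDGF-A is the main mitogen of oligodendrocyte precursors, which carry its receptor PDGFRα and are the most abundant cycling cells of the adult brain. Signalling from the receptor runs through the MAPK and PI3K pathways and induces its own inhibitors, the Sprouty and Dusp proteins. p53 halts or kills damaged cells through targets such as Cdkn1a, an inhibitor of cyclin-dependent kinases, and Mdm2, the ligase that degrades p53. Proneural glioblastoma shares many genes with oligodendrocyte precursors.

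No gene passed the test between the tumors and the lesions. Of 22180 genes measured on the log2 scale, on which a 2-fold difference is 1, limma called 0 higher and 0 lower in P3 GBM at an adjusted p under 0.05 (0% in each direction), and the smallest adjusted p was 1, so that every gene named below has an adjusted p of 1. At an unadjusted p under 0.05 there were 199 higher (0.897%) and 161 lower genes (0.726%). The values of the 3 arrays on each side did not overlap for 740 genes that were higher (3.34%) and 670 that were lower (3.02%) in P3 GBM. With each array centred on its median these were 324 (1.46%) and 1466 (6.61%), and after quantile normalization 535 (2.41%) and 1011 (4.56%). The methods' t-test called 0 genes after adjustment, with 285 higher and 273 lower at an unadjusted p under 0.05.

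**Figure D1:**
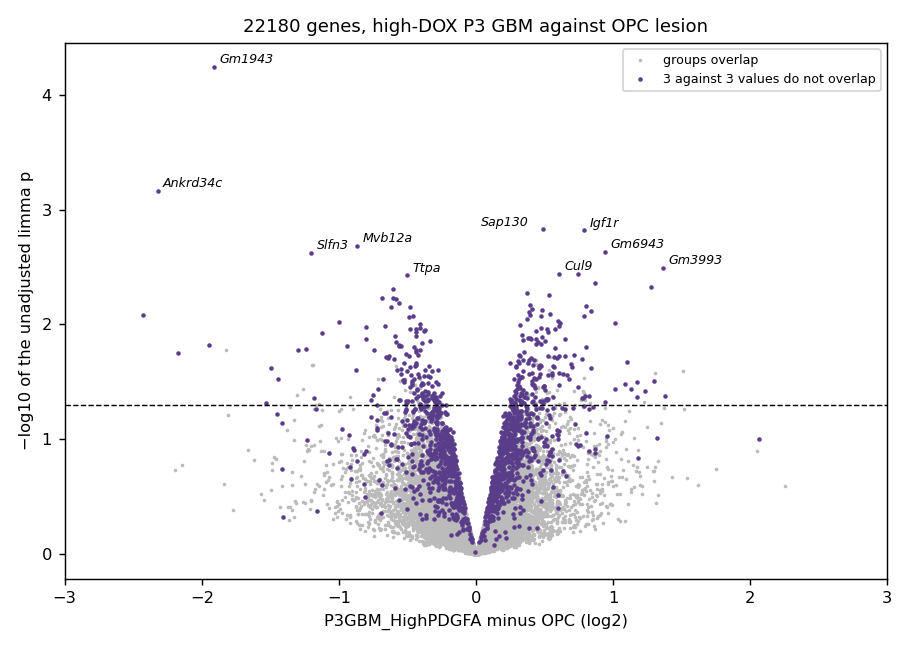
Each point is 1 of 22180 genes, with the P3GBM_HighPDGFA minus OPC difference (log2) on the x axis and −log10 of the unadjusted limma p on the y axis. The dashed line marks an unadjusted p of 0.05, purple points are genes whose 3 against 3 values do not overlap, and Gm1943 has the smallest p, 5.77e-05.

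The differences were small beside the spread. The median absolute difference was 0.13, and the median within-group SD was 0.21 in OPC lesions and 0.22 in P3 GBM. Only 71 genes were higher and 108 lower by more than 1. For 16764 genes (75.6%) the 95% interval of the difference lay within 1 on either side of 0, so a 2-fold difference was outside it. For the other genes the arrays did not set that limit. These figures cover all 22180 genes, of which 14772 had a group mean above the background mark described below. The rest are not shown to be above background, and a narrow interval there says little about expressed genes.

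Across genes, each of the 6 arrays was, among the 6, most like an array of the other group. OPC replicate 1 and P3 replicate 2 were the most similar pair, with a Pearson's r over genes of 0.985. OPC replicate 3 was nearest to P3 replicate 3, and P3 replicate 1 was nearest to OPC replicate 3, both at 0.981. OPC replicate 2 was nearest to P3 replicate 3, at 0.968. These correlations are over genes, which are not independent replicates. The 9 pairs between the groups had a median of 0.968, the 3 pairs within OPC 0.963 and the 3 pairs within P3 GBM 0.959.

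**Figure D2:**
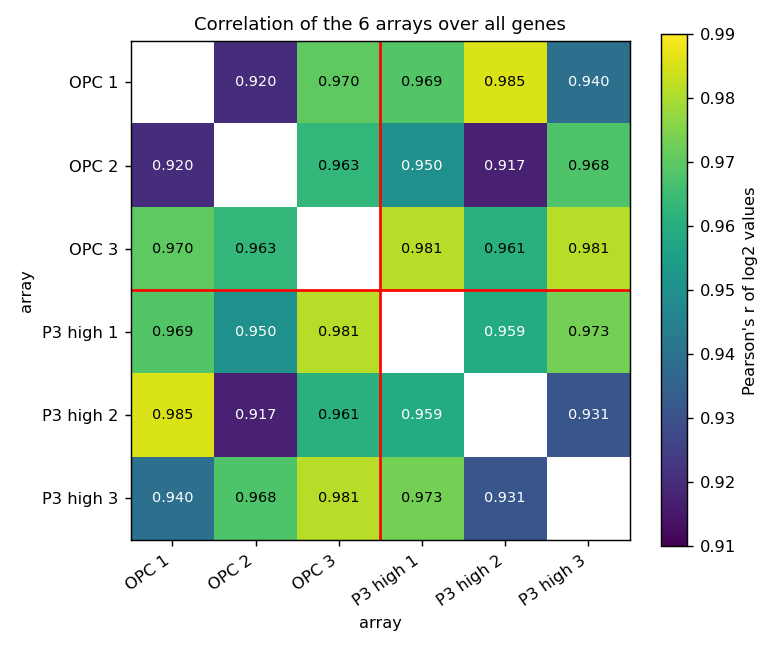
Pearson's r of log2 values over 22180 genes for each pair of the 6 high-DOX arrays, with red lines between the groups. The highest value, 0.985, joins OPC replicate 1 and P3 replicate 2, and the pairs within a group are not higher than the pairs across.

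Single arrays stood apart in what they contained. OPC replicate 2 had 500 genes more than 1 above each of the other 5 arrays (2.25% of genes), against 177 for P3 replicate 2 (0.798%) and at most 46 for any other. In OPC replicate 2 these were led by Xist at 9.38, the RNA of the inactive X, with at most 3.53 elsewhere. Gpnmb, a glycoprotein of activated macrophages, was at 11.39 there and at most 6.27 in the others. The interferon-induced genes Cxcl9 (10.08 against at most 5.44), Gbp4 (8.64 against 3.57) and Igtp (11.13 against 7.08) followed, with Arg1, an enzyme of alternatively activated macrophages, at 9.996 against 4.99. The Y-linked gene Eif2s3y was at 3.75 in OPC replicate 2 and between 6.86 and 8.09 in the other 5 arrays. Thus 1 OPC array alone had high Xist with low Y-linked genes, and no label gives sex.

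P3 replicate 2 was led by genes of the choroid plexus. Ttr, the transthyretin that this epithelium secretes, was at 12.46 against at most 5.32, and Kl, which encodes Klotho, at 9.21 against 4.54. The coagulation factor F5 was at 7.69 against 4.54. For Kl and F5 the lesions are not shown to be above background. P3 replicate 1 was led by Cep290, a ciliary gene, at 10.55 against 6.87, and by the small nucleolar RNA Snora75, at 9.15 against 6.39. Snora73b, Snora16a and Snora34, of the same class, were also among its 12 leading genes, as were genes of striatal projection neurons. Drd2, a dopamine receptor, was at 9.05 against 7.23, and Rgs9, a regulator of dopamine receptor signalling, at 10.03 against 8.54. P3 replicate 3 was led by the Hox genes Hoxa2, at 8.49 against 5.71, and Hoxa5, at 6.72 against 4.09. For Hoxa2 and Hoxa5 the lesions are not shown to be above background. These genes were picked for standing apart and carry no test. Of the 35 gene lists described below, the median difference of 27 changed sign when some array of the 2 groups was left out, and the values or ranges without such arrays are given beside them.

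The receptor and its ligands did not differ by more than the spread between arrays. Pdgfra was at 11.56, 11.58 and 12.93 in the OPC lesions and 12.57, 11.29 and 12.96 in the tumors, a difference of 0.25 ± 0.74 (SE) with a 95% interval from -1.47 to 1.97. Both groups had an array near 13 and an array near 11, and they overlapped. Mouse Pdgfa was at 6.63, 7.64 and 6.87 against 6.92, 7.12 and 7.02, a difference of -0.02 ± 0.27 that became 0.02 after quantile normalization. Whether the probes read any of the human PDGF-A or PDGFRα cDNA was not tested. Of the other members, Pdgfc differed by 0.21 and Pdgfb by 0.08, and without P3 replicate 2 the differences were -0.27 and -0.51. The median of the 6 ligands and receptors was 0.05, and -0.18 without that array. Pdgfrb, the receptor of pericytes, differed by -0.04, and Pdgfd by 0.02 with neither group shown to be above background. Col1a1, at whose locus the receptor cDNA sits, was at 5.89, 6.88 and 7.18 against 6.02, 6.41 and 7.58, a difference of 0.02 ± 1.30. Each SE in the text pools the 3 groups of the fit, low-DOX tumors included. For Col1a1 their SD was 2.95, against 0.67 in the lesions and 0.81 in the high-DOX tumors.

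The precursor genes pointed one way without a call. Of 20 measured precursor markers 17 were above 0, with a median difference of 0.27, where 48.2% of all genes were above 0 and the median over all genes was -0.01. None of the 20 had values without overlap, where 3.34% of all genes were higher and 3.02% lower without it. The median lay between -0.05 without P3 replicate 3 and 0.73 without P3 replicate 2. C1ql1, a secreted C1q-like protein of precursors, was at 7.24, 8.49 and 7.66 in the lesions and 10.03, 8.04 and 9.84 in the tumors. Tumor replicates 1 and 3 were above all lesions and replicate 2 was among them, for a difference of 1.51 ± 0.55. It was as high in the low-DOX tumors, at 9.73, 10.27 and 9.67. Cspg4, the NG2 proteoglycan, was at 7.99, 8.60 and 9.05 against 9.94, 7.89 and 9.65, a difference of 0.61 ± 0.69. Matn4 differed by 0.98 ± 1.01 and Megf11 by 0.74 ± 0.46.

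The lineage transcription factors Olig2 and Sox10 had differences near 0, whose sign turned on single arrays. Olig2 was at 10.95, 11.78 and 12.01 in the lesions and 11.83, 10.67 and 11.79 in the tumors, a difference of -0.14 ± 0.44. Sox10 was at 8.51, 10.005 and 10.07 against 10.12, 8.14 and 10.17, a difference of -0.05 ± 0.61. Without P3 replicate 2 the differences were 0.23 for Olig2 and 0.62 for Sox10. In both genes the low arrays were OPC replicate 1 and P3 replicate 2, and the other 4 lay close together. Pdgfra, Olig2 and Sox10, all on the precursor list, were far above the background mark in the lesions and in the tumors alike. The mark, taken from olfactory receptor and similar genes, lay between 4.31 and 4.59 in the 9 arrays.

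**Figure D3:**
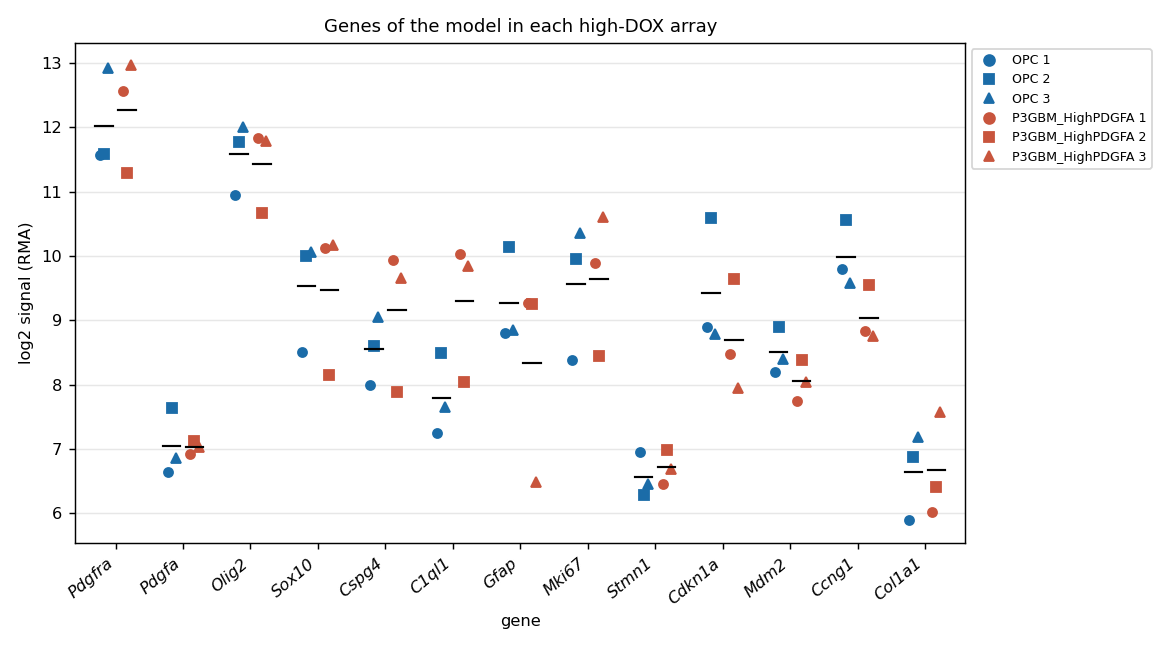
Log2 signal of 13 genes of the model, the precursor lineage and p53 in each array, blue for OPC lesions and red for P3 GBM, with marker shapes for replicates and black lines for group means. For Olig2, Sox10 and Mki67 the circle of the lesions and the square of the tumors are the low arrays, and Ccng1 is the only gene shown whose groups do not overlap.

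Most myelin genes had a difference below 0, while genes of newly formed oligodendrocytes had no steady direction. Of 19 myelin genes 17 were below 0, with a median of -0.52 that lay between -0.79 and -0.31 when each array was left out in turn, and 0 were called. Without OPC replicate 2, 6 of the 19 were above 0. The list means overlapped, at 7.91, 8.60 and 7.32 in the lesions and 7.83, 7.27 and 6.92 in the tumors. Of the 19, 1 was lower without overlap (3.02% of all genes), Klk6, a protease of mature oligodendrocytes, at 5.47, 7.27 and 5.48 against 4.95, 4.97 and 4.82 (a difference of -1.16 ± 1.37). That SE includes the low-DOX tumors, whose SD for Klk6 was 3.17. Opalin differed by -1.34 ± 0.93 and Cldn11, a tight junction protein of myelin, by -1.10 ± 0.72. OPC replicate 2 was the highest of the 6 arrays in 11 of the 19 genes. Of 14 genes of newly formed oligodendrocytes 9 were below 0, with a median of -0.08 that turned to 0.42 without OPC replicate 2, where 12 of the 14 had their highest value. It was above 0 also without P3 replicate 1 or 2. Of the 14, 1 was lower without overlap (3.02% of all genes), as was 1 after array centring (6.61% of all genes) and 0 after quantile normalization (4.56%). Tmem163 was at 8.86, 10.23 and 8.73 in the lesions and 6.38, 8.71 and 8.12 in the tumors, without overlap (-1.53 ± 0.66). Enpp6, which marks cells that have just left the cycle, was at 6.23, 10.92 and 6.31 against 5.11, 7.75 and 8.23, a difference of -0.79 that became 0.76 without OPC replicate 2. Cnksr3 differed by -0.35.

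p53 targets stood lower in the tumors as a list. Of 34 measured targets 28 were below 0, with a median of -0.22, and the median kept its sign when any array was left out, between -0.30 and -0.13. The list's mean was 6.80, 7.22 and 6.84 in the 3 lesions and 6.59, 6.79 and 6.64 in the 3 tumors, which did not overlap, with 6.80 the lowest lesion and 6.79 the highest tumor. With each array centred on its median the list means did overlap, with 6.84 the lowest lesion and 6.87 the highest tumor, and so they did after quantile normalization, at 6.81 and 6.82. Of the members, 3 had values without overlap that were lower (3.02% of all genes) and 1 that was higher (3.34%), and 0 were called. After centring 2 were lower without overlap (5.88% of the list, 6.61% of all genes) and 0 higher (1.46% of all genes). After quantile normalization 1 was lower (2.94% of the list, 4.56% of all genes) and 0 higher (2.41% of all genes). Under both scalings the list's lower share was thus below that of all genes. Ccng1, the cyclin G1 that is a classical p53 target, was at 9.80, 10.56 and 9.58 in the lesions and 8.82, 9.55 and 8.75 in the tumors. Every tumor was below every lesion, for a difference of -0.94 ± 0.31. Ei24, a protein of the endoplasmic reticulum, was at 9.51, 9.39 and 9.46 against 9.34, 9.18 and 8.96, and Aen, an apoptosis nuclease, at 6.23, 6.65 and 6.38 against 5.99, 6.21 and 6.21. Trp73, a relative of p53, was the member that was higher, by 0.26 ± 0.15.

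The best known p53 targets overlapped. Cdkn1a was at 8.89, 10.58 and 8.78 in the lesions and 8.48, 9.64 and 7.95 in the tumors, a difference of -0.73 ± 0.66. Mdm2 was at 8.20, 8.89 and 8.40 against 7.75, 8.38 and 8.04, a difference of -0.44 ± 0.37. OPC replicate 2 was the highest array in both and in 17 of the 34 targets. Eda2r was at 4.34, 6.32 and 5.04 against 4.26, 4.36 and 3.68, with the tumors not shown to be above background. Tnfrsf10b, a death receptor, was at 6.85 in OPC replicate 2 and between 4.21 and 4.69 in the other high-DOX arrays, with the tumors not shown to be above background. Trp53 has no probe set naming it alone and was not analysed here.

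Feedback genes downstream of the receptor showed no shared direction. Of 23 measured genes of receptor tyrosine kinase and MAPK output 10 were above 0 and 13 below, with a median of -0.08 that lay between -0.18 and 0.15 when each array was left out. Spry1 differed by 0.40 ± 0.53, Spry4 by 0.28 ± 0.74, the ETS factor Etv4 by 0.33 ± 0.63 and the ERK phosphatase Dusp6 by -0.08 ± 0.40. The lowest array in 12 of the 23 was P3 replicate 2. Of the 23, 2 were lower without overlap (3.02% of all genes), the phosphatase genes Dusp1 and Dusp5, and 0 were called. Dusp1, an early stress-induced gene, was at 8.56, 7.92 and 7.84 in the lesions and 7.23, 7.61 and 7.56 in the tumors (-0.64 ± 0.22). Dusp5 was at 6.51, 6.88 and 6.36 against 5.50, 6.33 and 5.96. Il17rd, also called Sef, an inhibitor of the pathway, differed by 0.61 ± 0.28.

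Proliferation genes varied more between arrays than between groups. Mki67, the marker of cycling cells, was at 8.39, 9.96 and 10.35 in the lesions and 9.89, 8.45 and 10.61 in the tumors, a difference of 0.08 ± 0.66. OPC replicate 1 and P3 replicate 2 were the low arrays in each group. The 29 mitosis genes had list means of 6.62, 8.13 and 8.36 against 7.82, 6.45 and 8.49, and a median difference of -0.12. This median became 0.47 without P3 replicate 2 and -0.63 without OPC replicate 1, and it was also above 0 without OPC replicate 2 or 3. The neuron list mean was 10.05 and 10.26 in those same arrays and between 6.41 and 8.71 in the other 4. The part of the neuronal content in the proliferation values was not tested. With both of those arrays left out, a setting added after the values were seen, limma again called 0 genes in either direction, and the mitosis median was -0.05. Plk1, a mitotic kinase, differed by -0.48, Ccna2 by -0.46 and Cenpf by 0.40, and each changed sign when 1 array was left out.

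DNA replication genes had differences below 0 in nearly every member, without a call, and the direction rested on 1 array. Of 26 genes 25 were below 0, with a median of -0.30 that became 0.07 without P3 replicate 2, which was the lowest array in 24 of the 26. Rrm2, the small subunit of ribonucleotide reductase, was at 6.80, 8.17 and 8.23 in the lesions and 6.48, 5.81 and 7.37 in the tumors, a difference of -1.18 ± 0.52. Gins1 differed by -0.73 and Chaf1b, a histone chaperone subunit, by -0.68. Of 21 genes of the RB pathway and G1, 18 were below 0 with a median of -0.18, which became 0.07 without P3 replicate 2, the lowest array in 12 of them, and -0.47 without OPC replicate 1. Cdkn2b, an inhibitor of CDK4 and CDK6, differed by -0.63 ± 0.44, Cdk6 by -0.64 ± 0.74, Rbl1 by -0.44 ± 0.57 and Ccnd1, or cyclin D1, by -0.23 ± 0.36.

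Stathmin, the tubulin-binding protein of the study, did not differ by more than its spread. Stmn1 was at 6.96, 6.28 and 6.45 in the lesions and 6.46, 6.99 and 6.68 in the tumors, a difference of 0.15 ± 0.23 with a 95% interval from -0.39 to 0.68. The array measures RNA and does not read the protein or its phosphorylation. Of 22 genes for stathmins, tubulins and their partners 9 were above 0, with a median of -0.09 that lay between -0.31 and 0.08 when each array was left out. Tuba1b differed by -1.36 ± 0.60, Tubb4a by -0.83 ± 0.54 and Tubb6 by -0.77 ± 0.54. Tuba1b was low, at 4.54, 6.77 and 6.13 in the lesions and 3.74, 4.70 and 4.93 in the tumors. Its tumor mean of 4.455 lay at the tumors' background mark of 4.454. Tubulin genes are near-identical copies, so their probe sets may share signal.

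Cholesterol synthesis genes had differences below 0 in all members but 1, without a call. Of 17 measured genes for the enzymes and regulators of the pathway 16 were below 0 with a median of -0.31, which lay between -0.37 and -0.24 when each array was left out. The exception was Srebf2, at 0.25, which encodes SREBP2, the transcription factor that induces the pathway. The list mean was 8.66, 8.61 and 8.69 in the lesions and 8.23, 8.38 and 8.40 in the tumors, without overlap, also after array centring and quantile normalization. Of the 17 genes 4 were lower without overlap (3.02% of all genes), with 0 called, and 5 (6.61%) after centring and 3 (4.56%) after quantile normalization. Hmgcs1, which makes the first committed intermediate, was at 10.78, 10.72 and 10.75 against 10.09, 10.69 and 10.22. Fdps was at 8.79, 8.73 and 8.48 against 8.23, 8.17 and 8.24, a difference of -0.45 ± 0.22. Lss, lanosterol synthase, was at 8.34, 8.41 and 8.28 against 7.72, 7.51 and 7.95. Hsd17b7 was at 7.61, 8.30 and 7.46 against 6.86, 7.33 and 7.14, and Ebp differed by -0.60 with overlap. The list means of the low-DOX tumors were 8.61, 7.62 and 7.76, so those 3 arrays spread more than the groups differ.

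**Figure D4:**
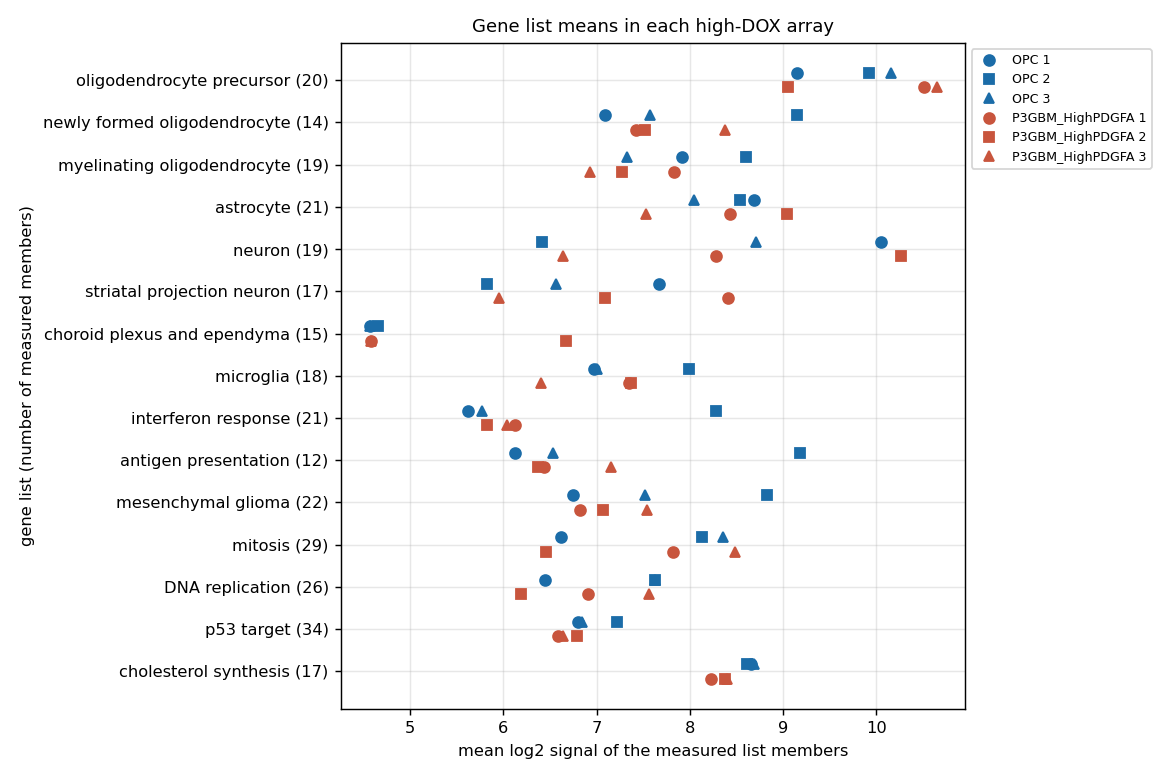
Mean log2 signal of the measured members of 15 gene lists in each array, blue for OPC lesions and red for P3 GBM, with marker shapes for replicates and the number of members in parentheses. The groups do not overlap for the cholesterol synthesis list, nor for the p53 target list on the deposited values shown here (6.80 against 6.79), which do overlap after array centring or quantile normalization, OPC replicate 2 stands alone in the interferon list at 8.28, and P3 replicate 2 stands alone in the choroid plexus list at 6.67.

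Interferon and antigen presentation genes were high in 1 lesion and in 1 low-DOX tumor. All 21 measured interferon genes were below 0, with a median of -0.51, yet the list mean was 8.28 in OPC replicate 2 and between 5.62 and 6.13 in the other 5 high-DOX arrays. It was 8.34, 6.71 and 6.12 in the low-DOX tumors. OPC replicate 2 was the highest array for 19 of the 21. Without it the median was 0.32 and 18 of the 21 were above 0. Cxcl10, a chemokine that draws T cells, was at 4.44, 9.46 and 4.96 in the lesions and 5.04, 5.15 and 4.88 in the tumors. Zbp1, a sensor of foreign nucleic acid, was at 4.97, 8.97 and 5.27 against 5.22, 4.998 and 5.45, and Ifih1, the RNA sensor MDA5, at 6.26, 8.91 and 5.78 against 6.21, 6.40 and 5.62. The 12 antigen presentation genes had a median of -0.61 that turned to 0.28 without OPC replicate 2. Their list mean was 9.18 in that array, between 6.12 and 7.16 in the other 5, and 9.96, 7.90 and 7.85 in the low-DOX tumors. Psmb9, Psmb8 and Tap1, parts of the peptide supply of MHC class I, were at 8.83, 9.90 and 10.61 in that array and at most 5.23, 6.79 and 7.24 in the other 5.

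Promoters of genes that were high together in that array are shown because many hold the interferon-stimulated response element, the sequence bound by STAT and IRF complexes. RefSeq windows from 250 bases before to 50 after the start (GRCm38.p6) were searched on both strands for GAAANNGAAA, and matched 16 of the 21 measured interferon genes by symbol. The motif was in 11 of the 16 (68.8%) and in 3.99% of 27025 genes with a window. The motif TCACNCCAC, the sterol regulatory element bound by SREBP, was in 1 of 14 measured cholesterol genes with a window (7.14%) and in 1.44% of all. Hmgcs1 is shown as the cholesterol gene with a match, and capitals mark the motif.
Cxcl10 (chr5:92349083-92349112, minus strand): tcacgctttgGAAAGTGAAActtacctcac
Ifih1 (chr2:62646206-62646235, minus strand): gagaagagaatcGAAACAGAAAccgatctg
Hmgcs1 (chr13:119690204-119690233, plus strand): cgtcaccgtcTCACCCCACttcccaggtcc
A match describes these letters only.

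Myeloid genes followed the same lesion. Of 18 microglia genes 14 were below 0 with a median of -0.20, which turned to 0.11 without OPC replicate 2, the highest array for 13 of them, and to 0.01 without P3 replicate 3. Of the 18, 1 was lower without overlap (3.02% of all genes). Fcrls, a microglial receptor, was at 6.59, 6.88 and 7.61 in the lesions and 5.77, 6.52 and 5.57 in the tumors, without overlap (-1.07 ± 0.63). Itgam, or CD11b, differed by -1.09 ± 0.76 and C1qa by -0.55 ± 0.54. Of 15 genes of monocyte-derived and border macrophages 10 were below 0 with a median of -0.16, which became 0.05 without OPC replicate 2. They were led by Arg1 at -1.84 ± 1.46. Ms4a4a and Plac8 were at 6.73 and 5.97 in OPC replicate 2 and at most 4.77 and 4.02 in the other 5, with the tumors not shown to be above background. T cell and neutrophil genes were mostly near background, with 6 of 10 and 12 of 14 not shown to be above it in either group. The neutrophil median was -0.01, between -0.06 and 0.04 when each array was left out. Cd3e was at 5.91 in OPC replicate 2 and at most 4.13 in the other 5, and Cd3g at 4.94 against 3.59. The tumors are not shown to be above background for Cd3e, and neither group is for Cd3g. Cd2 differed by -0.25, Mmp9 by -0.26, Ly6g by -0.24 and Cxcr2 by -0.13. Neither group is shown to be above background for Cd2, Ly6g or Cxcr2.

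Mesenchymal glioma genes, which include many of macrophages and wound matrix, shared this pattern. Of 22, 21 were below 0 with a median of -0.49, and OPC replicate 2 was the highest array in 21. Without it the median was 0.03. Anxa1 was at 9.38 in that array and between 4.24 and 5.86 in the other 5. Timp1, an inhibitor of matrix proteases, was at 5.29, 9.93 and 7.80 against 4.996, 7.03 and 7.36, and Tgfbi differed by -1.25 ± 1.27. Lcn2, a lipocalin of reactive astrocytes and neutrophils, was at 6.46, 10.10 and 6.35 against 6.22, 6.15 and 6.30. The proneural and classical lists had medians of 0.05 over 23 genes and 0.04 over 22, which lay between -0.22 and 0.30 and between -0.04 and 0.20 when each array was left out. Nrxn2, a synaptic adhesion protein on the proneural list, was at 9.18, 8.12 and 9.32 in the lesions and 9.42, 9.93 and 9.74 in the tumors (0.82 ± 0.34). Bcan, the brain proteoglycan brevican, differed by 0.70 ± 0.46, and Cdh4 on the classical list by 0.95 ± 0.54.

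Astrocyte genes had no shared direction. Of 21 genes 11 were above 0 with a median of 0.01, which lay between -0.46 without P3 replicate 2 and 0.23 without P3 replicate 3. Gfap, the intermediate filament of reactive astrocytes, was at 8.80, 10.15 and 8.85 in the lesions and 9.26, 9.26 and 6.49 in the tumors, a difference of -0.93 ± 0.82, with P3 replicate 3 alone below all lesions. Aqp4 was also lowest in that array, at 7.35, and Aldh1l1 at 5.21, with differences of -0.59 ± 0.87 and -1.24 ± 0.69. Of 20 stem and progenitor genes 8 were above 0 with a median of -0.06 that lay between -0.22 and 0.07 when each array was left out. Nes, the filament nestin, was at 7.78, 8.92 and 9.49 against 7.44, 6.93 and 8.02, a difference of -1.26 ± 0.50. Hes5, a Notch target, was at 7.21, 6.73 and 6.80 against 7.80, 7.25 and 7.49 without overlap, with an SE of 0.67 that includes the spread of the low-DOX tumors. Dll3, a Notch ligand, differed by 0.65 ± 0.63, Jag1 by 0.65 ± 0.67 and the Wnt receptor Fzd1 by -0.82 ± 0.42, and the 29 Notch and Wnt genes had a median of 0.14, between 0.00 and 0.19 when each array was left out.

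Neuronal genes also varied more between arrays than between groups. The 19 neuron genes had list means of 10.05, 6.41 and 8.71 in the lesions and 8.28, 10.26 and 6.64 in the tumors, and a median difference of 0.16. This median became -0.84 without OPC replicate 2, -0.80 without P3 replicate 2 and 0.87 without OPC replicate 1. Slc17a7, the vesicular glutamate transporter of cortical neurons, was at 11.66, 5.71 and 9.90 against 5.18, 11.75 and 6.25. Stmn2, a neuronal stathmin, was at 11.15, 6.58 and 9.54 against 7.45, 11.31 and 6.28. Each group thus had an array near the top and an array near the bottom of the range. Striatal projection neuron genes were highest in P3 replicate 1, at a list mean of 8.41, and in OPC replicate 1, at 7.67. Of 17, 15 were above 0 with a median of 0.46, which became -0.05 without P3 replicate 1. Actn2, Pde10a and Adcy5, the last a striatal adenylyl cyclase, differed by 0.99 ± 0.76, 0.89 ± 0.63 and 0.88 ± 0.74. Tubb3 differed by -0.62 ± 0.76. The 26 synapse and excitability genes had a median of 0.25, which became -0.26 without OPC replicate 2, -0.21 without P3 replicate 2 and 0.71 without OPC replicate 1, and the sodium channel Scn2a differed by 0.96 ± 1.18. The glutamate receptor Grik2 was at 8.27, 8.22 and 8.15 against 9.10, 8.42 and 8.65 without overlap (0.51 ± 0.33), and Scn3a differed by 0.63 ± 0.44.

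The activity-induced genes had a median of -0.18 over 16 genes, which became 0.02 without OPC replicate 1. Npas4, induced by neuronal firing, was at 7.79 in OPC replicate 1 and at most 5.05 in the other 5. Fos was at 7.10, 8.45 and 7.73 against 5.75, 6.68 and 7.86 (-0.997 ± 0.64), and Atf3 differed by -0.72 ± 0.56.

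Vessel and matrix genes had medians near 0, and their list means overlapped. Of the genes of these 5 lists, Rgs5, a pericyte gene, was higher by 0.44 and Bmp2 lower by 0.36 without overlap, where 3.34% and 3.02% of all genes were so. When each array was left out, the medians lay between -0.24 and 0.09 for the endothelial list, -0.17 and 0.04 for the mural list, -0.03 and 0.21 for the fibroblast list, -0.48 and 0.24 (without OPC replicate 2) for the collagen list and -0.15 and 0.13 for the TGF-beta and BMP list. The 19 endothelial genes had a median of -0.08, with Slc2a1, the glucose transporter of the barrier, at -0.47 ± 0.36, Erg at -0.45 ± 0.34 and the VEGF receptor Kdr at 0.44 ± 0.53. The 16 mural genes had a median of -0.04, with Mcam at -0.82 ± 0.61 and Acta2, smooth muscle actin, at -0.59 ± 0.86. The 18 fibroblast and meningeal genes had a median of 0.07, with Dcn, or decorin, at 1.19 ± 0.95, and Islr at -0.88 ± 0.68. Ogn differed by 1.02 ± 0.82, carried by 6.62 in P3 replicate 2 and 0.11 without it, with the lesions not shown to be above background. The 31 collagen and matrix genes had a median of -0.05, with Tnc, or tenascin C, at -0.998 ± 1.04 and the collagen crosslinker Lox at 0.89 ± 1.15. The SEs of Tnc and Lox include the wider spread of the low-DOX tumors. The 25 TGF-beta and BMP genes had a median of 0.00, with Inhba at 1.21 ± 1.08, carried by 8.96 in P3 replicate 2, and the BMP inhibitor Chrdl1 at -0.98 ± 0.59. Of 20 hypoxia and glycolysis genes 17 were below 0 with a median of -0.35. It became -0.02 without P3 replicate 1 and -0.04 without OPC replicate 2, the highest array in 15 of the 20. Egln3, an oxygen sensor, was at 7.35, 8.77 and 6.97 against 5.15, 7.12 and 7.44, and Bnip3 differed by -0.74 ± 0.39.

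Blood and choroid genes were near background in most arrays. Of the red cell genes only 2 of 10 were measured, Slc4a1 at 0.14 ± 0.14 and Epb42 at 0.04 ± 0.10 with neither group shown to be above background. The choroid plexus and ependyma list had a median of 0.47 over 15 genes, which was 0.04 without P3 replicate 2, whose list mean was 6.67 against at most 4.65 in the other 5.

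The genes with the smallest p values came from no single list. On the higher side, 10 genes were taken in order of p among those without overlap and above background, and none was called. Sap130, a subunit of the Sin3 deacetylase complex, was at 8.85, 8.93 and 8.97 in the lesions and 9.41, 9.34 and 9.45 in the tumors, a difference of 0.49 ± 0.10. Igf1r, the receptor of insulin-like growth factor, was at 7.99, 7.62 and 7.89 against 8.74, 8.71 and 8.42 (0.79 ± 0.17). In both genes each group was tight and apart from the other, and the low-DOX tumors were with the lesions, at 8.84, 9.06 and 8.97 for Sap130 and 7.30, 7.76 and 7.57 for Igf1r. Lifr, the receptor of leukemia inhibitory factor, was at 8.54, 7.92 and 8.50 against 9.32, 8.76 and 9.29. Cul9, a cullin that binds p53, was at 6.79, 6.35 and 6.38 against 7.26, 7.07 and 7.02. Rapgef3, the cAMP-activated exchange factor Epac1, was at 6.45, 6.24 and 6.42 against 7.68, 6.78 and 7.24. Dpyd, which degrades pyrimidines, was at 6.14, 5.12 and 6.42 against 7.29, 7.22 and 6.997. The other genes were Gm6943 (0.94 ± 0.21), Gm3993 (1.36 ± 0.33), Art4 (0.37 ± 0.10) and AW121686 (0.41 ± 0.11), the last with the lesions not shown to be above background.

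On the lower side, the smallest p of all belonged to Gm1943, at 7.50, 7.97 and 7.79 in the lesions and 5.45, 5.79 and 6.28 in the tumors, a difference of -1.91 ± 0.24. Ankrd34c was at 7.36, 7.56 and 8.03 against 4.81, 6.27 and 4.91, a difference of -2.32 ± 0.43. Both were as low in the low-DOX tumors, at 5.77, 5.23 and 5.65 for Gm1943 and 3.78, 4.54 and 4.78 for Ankrd34c. The OPC arrays are shared by both comparisons, so the low-DOX values do not repeat the test. Mvb12a, a subunit of the ESCRT-I sorting complex, was at 7.42, 7.53 and 7.39 against 6.94, 6.51 and 6.29, with the low-DOX tumors at 7.48, 7.12 and 7.60. Ndfip1, an adaptor of Nedd4 ubiquitin ligases, was at 10.58, 10.41 and 10.63 against 9.81, 10.21 and 9.79. Glrx, or glutaredoxin, was at 9.03, 8.54 and 8.98 against 8.01, 8.09 and 8.40. Klf2, a transcription factor induced by flow in endothelium, was at 6.52, 6.56 and 6.15 against 6.03, 5.68 and 5.75. Ttpa, the vitamin E transfer protein, differed by -0.50 ± 0.12. Slfn3 (-1.20 ± 0.27), 1110002E22Rik (-0.60 ± 0.16) and 4833412C05Rik (-0.48 ± 0.13) were not shown to be above background in the tumors.

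**Figure D5:**
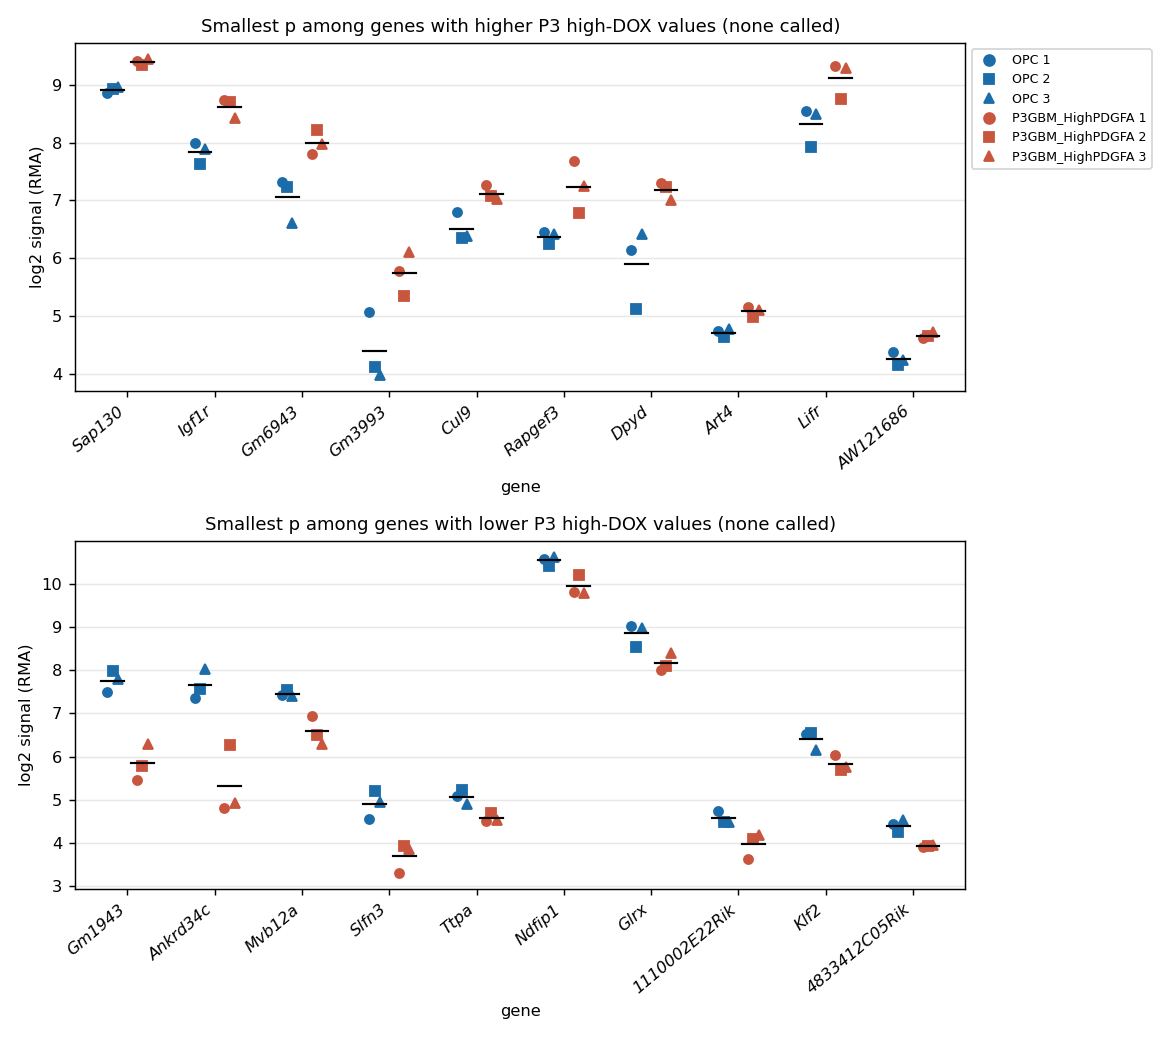
Log2 signal in each array of the 10 genes with the smallest p on the higher side (top) and the lower side (bottom), blue for OPC lesions and red for P3 GBM, with marker shapes for replicates and black lines for group means. The groups do not overlap in any of the 20 genes because the rule asked for it, and no gene passed the adjusted threshold.

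Some larger differences had wider errors. These genes were chosen after their values were seen. Aldh1a3, which makes retinoic acid, was at 6.47, 8.05 and 9.23 in the lesions and 5.45, 5.57 and 6.22 in the tumors (-2.17 ± 0.73). Npl, a sialic acid lyase, was at 6.84, 9.56 and 7.62 against 5.80, 6.43 and 5.96 (-1.95 ± 0.63). Gm3893 was at 9.51, 7.18 and 7.84 against 5.47, 6.99 and 4.79, the most negative difference of all genes (-2.43 ± 0.69). The nuclear receptor Rorb was at 9.26, 8.83 and 9.09 against 7.30, 8.44 and 7.55, and the GABA receptor subunit Gabrg3 at 7.55, 8.12 and 7.35 against 6.78, 7.11 and 5.77. On the higher side, Grin3a, a subunit of NMDA receptors, was at 7.91, 6.54 and 7.85 against 9.03, 8.30 and 8.85. Syne1, a linker of nucleus and cytoskeleton, was at 8.55, 7.54 and 6.91 against 9.42, 9.09 and 8.61. The Syne1 values are of the brightest of its 59 probe sets and may not hold for the others. No cause of these differences was tested.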

How the data were processed

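Gene expression was measured on 9 Affymetrix mouse arrays in 3 groups of 3. The authors normalized the arrays by the robust multichip average (RMA) method, and the deposited values are log2 signals. The methods also name a surrogate variable step, without stating whether it precedes these values, whose within-group residuals had full rank (6). Precision is limited by the number of arrays, whose medians lay between 4.55 and 4.83.

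Of 41345 probe sets, 23521 name 1 gene and were used. Left out were 1820 with several names and 16004 with none in the array annotation, apart from 1 fit over all probe sets. The brightest probe set by mean signal stood for each of 1082 genes with several, which gave 22180 genes. The contrast P3GBM_HighPDGFA minus OPC came from a limma 3.58.1 fit (R 4.3.3) of the 3 groups of arrays, with no filter and no further scaling, and p values were adjusted by Benjamini-Hochberg over all genes. The fit was tested on simulated data. A group mean was written as not shown to be above background where it was under a mark. The mark was the mean, over the group's arrays, of the 95th percentile of 1445 olfactory and vomeronasal receptor and hair keratin-associated genes. Values given for single arrays do not always carry this note.

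Lists (16 of cell types and 19 of pathways, 628 of 691 genes measured) are described by counts and medians beside those of all genes. The members and lists were chosen with earlier results of these data known. Genes named are the 10 with the smallest p on each side among those without overlap and above background, the 3 largest differences of each list and 11 genes of the model, and others were chosen after their values were seen. Promoter sequences came from RefSeq (GRCm38.p6). Alternatives were array centring, quantile normalization, filters on low genes, averaged probe sets, a trended prior, the 6 arrays alone, a replicate block, the methods' t-test and leaving out each array. The omission of the neuron-rich pair and the fit over all probe sets were added after the data were seen. Figures were drawn with matplotlib 3.10.9.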

Additional observations from a re-analysis of the deposited data

How the results depend on the processing

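The counts of called genes stayed at 0 in both directions under every alternative run, namely array centring, quantile normalization, either filter on low genes, averaged probe sets, a trended prior, the 6 arrays alone, the methods' t-test, all probe sets, each array left out (0 to 0) and both neuron-rich arrays left out. With the replicate number as a block the count was also 0 in each direction. The same-numbered lesions and tumors had residual correlations of -0.04, -0.48 and 0.27. These are over genes and do not show whether the numbers pair the samples. Centring moved the median of all genes from -0.01 to -0.07 and the unadjusted counts to 98 higher and 299 lower. Without OPC replicate 1 the unadjusted counts were 287 higher and 449 lower, and without P3 replicate 2 they were 414 and 291.

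None of the genes below was called under any alternative run, and the cause of each change was not tested. Differences changed sign for Epb42 (-0.029), Col1a1 (-0.045) and Pdgfd (-0.043) with array centring. They did so for Epb42 (-0.014), Pdgfa (0.020) and Pdgfd (-0.040) with quantile normalization. Those of Kdr (-0.070), Ttr (-0.38), Epb42 (-0.032), Pdgfc (-0.17), Pdgfb (-0.35), Inhba (-0.13), Col1a1 (-0.23), Sox10 (0.11), Pdgfd (-0.49) and Dusp6 (0.11) with both neuron-rich arrays left out changed sign as well. Leaving out 1 array at a time changed the sign of some differences, whose ranges were Enpp6 (-1.58 to 0.76), Cnksr3 (-0.85 to 0.30), Aqp4 (-1.20 to 0.16), Stmn2 (-2.22 to 0.29), Ms4a4a (-1.64 to 0.041), Mmp9 (-1.45 to 0.63), Cxcr2 (-0.25 to 0.055), Ttr (-0.32 to 3.55), Epb42 (-0.038 to 0.10), Pdgfra (-0.093 to 0.74), Pdgfc (-0.27 to 0.46) and Pdgfb (-0.51 to 0.55). Further ranges were Rbl1 (-1.03 to 0.023), Plk1 (-0.98 to 0.044), Ccna2 (-1.06 to 0.095), Cenpf (-0.12 to 0.97), Psmb9 (-1.90 to 0.19), Tap1 (-1.91 to 0.29), Cxcl10 (-2.19 to 0.32), Zbp1 (-1.90 to 0.10), Ifih1 (-1.51 to 0.058), Scn2a (-0.41 to 2.05), Inhba (-0.19 to 1.97) and Anxa1 (-2.40 to 0.17). Further ranges were Pdgfa (-0.23 to 0.27), Col1a1 (-0.43 to 0.35), Olig2 (-0.46 to 0.23), Sox10 (-0.56 to 0.62), Mki67 (-0.51 to 0.68), Eif2s3y (-0.42 to 1.75), Uty (-0.023 to 1.74), Pdgfd (-0.46 to 0.27), Pdgfrb (-0.37 to 0.35), Etv4 (-0.065 to 0.997), Dusp6 (-0.31 to 0.21) and Ccnd1 (-0.47 to 0.078).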

Other observations

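Over all 41345 probe sets, named or not, limma called 0 for P3GBM_HighPDGFA against OPC, with 583 higher and 353 lower at an unadjusted p under 0.05. The smallest adjusted p, 0.183, was that of probe set 17219474, which has no gene name here. It was at 6.32, 6.55 and 6.28 in the OPC lesions and at 8.84, 8.62 and 9.29 in the high-DOX tumors, a difference of 2.54 ± 0.23 (SE), and at 9.25, 9.34 and 9.93 in the low-DOX tumors. Probe set 17280184, also without a name here, was at 7.39, 8.04 and 7.92 in the lesions and 3.25, 4.16 and 3.17 in the high-DOX tumors. Its low-DOX values were 5.97, 8.52 and 6.34, so they lay between and above those groups.

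Hoxa2, a gene that patterns the hindbrain in the embryo, was at 4.01, 4.35 and 4.11 in the lesions and 5.71, 4.47 and 8.49 in the high-DOX tumors, without overlap (2.06 ± 1.10). The lesions are not shown to be above background, and the difference was 0.93 without P3 replicate 3. It was at 6.77 in low-DOX replicate 2 and at 3.83 and 3.88 in the other low-DOX tumors. The Y-linked gene Uba1y was at 3.76, 4.20 and 4.37 in the lesions, which are not shown to be above background, and at 5.57, 4.81 and 5.66 in the high-DOX tumors (1.24 ± 0.50). It was low also in OPC replicates 1 and 3, whose Kdm5d (5.87 and 6.42) and Uty (6.74 and 6.88), likewise on the Y chromosome, were near the tumors' 5.89 to 6.81 and 6.57 to 6.94. OPC replicate 2 had Kdm5d at 3.40 and Uty at 3.36. These genes were chosen after their values were seen, and no cause was tested.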
